A study of Mus musculus with 14 samples.

Results

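The presynaptic vesicle release machinery was examined here as 46 genes, taken by symbol from the table of counts of the hippocampus. All 46 were among the 24421 genes of that table, and all 46 passed the filter on low counts that left 14897 genes to test. RNA of 7 mice labelled LPAR2-/- was compared with RNA of 7 wild-type (WT) mice, 1 library per mouse. The labels describe all 14 mice as untreated males of strain 129.C57Bl6, 10 to 12 weeks old, whereas the text deposited with the series calls them middle-aged to aged, so their age is not known. The tissue is the hippocampus in the labels and in the methods of the study, and the dentate gyrus in its results. LPAR2-/- mice carry a constitutive loss of the second part of exon 2 of Lpar2, the gene of the lysophosphatidic acid receptor LPAR2. They were bred as homozygotes beside a separate control colony of mixed C57BL/6 and 129/SvJ background, so that genotype and colony cannot be told apart. LPAR2 is held to raise the release of glutamate, and the comparison asks whether the RNA of the release machinery itself differed between the genotypes. Rab3a and Unc13a lie close to Lpar2 on chromosome 8 and were therefore kept apart from the other 44 genes.

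Transmitter is loaded into synaptic vesicles by transporters in their membrane, which for glutamate are the vesicular glutamate transporters. Vesicles dock at the active zone, a protein scaffold under the presynaptic membrane, and are primed by proteins of the Unc13 family. Fusion is driven by the SNARE proteins synaptobrevin, SNAP-25 and syntaxin, is held ready by complexins and is triggered when calcium binds synaptotagmin. Rab3 GTPases bring vesicles to the active zone, and dynamin, amphiphysins and endophilin retrieve the membrane afterwards. Granule cells of the dentate gyrus, the pyramidal cells of CA3 and CA1 and local interneurons differ in which family members they use, so that RNA of whole tissue is a mixture of these cells. In such bulk samples fewer cells of a type and less RNA per cell cannot be told apart.

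Each library held 15434620 to 23258949 counted reads, and the 46 release genes held 2.28% to 2.67% of the reads of a WT mouse and 2.32% to 2.65% of those of a mouse labelled LPAR2-/-. Levels are given as CPM, read counts put on the scale of a library of the same normalised size in every mouse. Lpar2 itself was higher in the libraries labelled LPAR2-/-, with 144 to 234 counts against 27 to 66 in WT libraries and a log2 fold change of 2.01 (SE 0.157, adjusted p = 8.2e-07, edgeR). The counts are summed over all exons of the gene, of which the deleted stretch is a part, so they check the label only in part, and directions refer to the libraries as labelled. Markers of dentate granule cells (6 genes) summed to 755 to 1183 CPM, those of CA3 pyramidal cells (4 genes) to 245 to 381 CPM and those of CA1 pyramidal cells (5 genes) to 78.1 to 292 CPM, so that RNA of all 3 fields was present in every library, and no marker was at 0 in all mice. Several libraries stood apart. LPAR2-/- mice 6 and 7 had the highest summed dentate granule cell markers of all mice, 1163.5 and 1182.5 CPM, against 755 to 996 in the other mice labelled LPAR2-/- and 794 to 1115 in WT mice. Oligodendrocyte markers summed to 4059 CPM in LPAR2-/- mouse 3 and to 1007 to 2116 in the other 13 libraries, and choroid plexus markers to 286 CPM in LPAR2-/- mouse 2 and to 26.0 to 50.7 elsewhere. Many small differences moved with these libraries, and values without them stand beside the larger ones and, where the sign changed, in the closing section. Of the 18 lists of marker genes, 4 held a called gene (Tdo2, Rgs14 and Lum higher, Gpr17 lower). Meningeal fibroblast markers (6 genes) summed to 46.1 to 260 CPM in WT mice (median 92.9) and 73.3 to 362 CPM in mice labelled LPAR2-/- (median 228), and their part in the results on release genes was not tested.

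Few release genes differed between the genotypes. Of the 44 release genes away from Lpar2, 3 passed an adjusted p of 0.05, or 6.82%, and 6.77% of all genes tested did so (edgeR's quasi-likelihood test with Benjamini-Hochberg adjustment over all 14897 genes). Rab3b and Unc13b were lower and Doc2a was higher in the mice labelled LPAR2-/-. Lower calls were 2 of 44 (4.55%), against 3.46% of all genes tested, and higher calls 1 of 44 (2.27%), against 3.32%. Without regard to direction, the share of calls among the release genes was close to that of all genes. At an unadjusted p under 0.05 there were 7 of 44, against 22.4% of all genes. Over all 46 genes, 21 were higher and 25 lower. The median of their log2 fold changes was −0.0084, and that of all genes 0.0029. The median size of the difference, without its sign, was 0.064 on the log2 scale for the release genes and 0.087 for all genes. For 33 of the 46 genes the 95% interval of the fold change lay within 1.25-fold either way, which held for 62.5% of all genes. Failing the threshold does not show that levels were alike, and these intervals give the range of differences that the data allow.

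**Figure D1:**
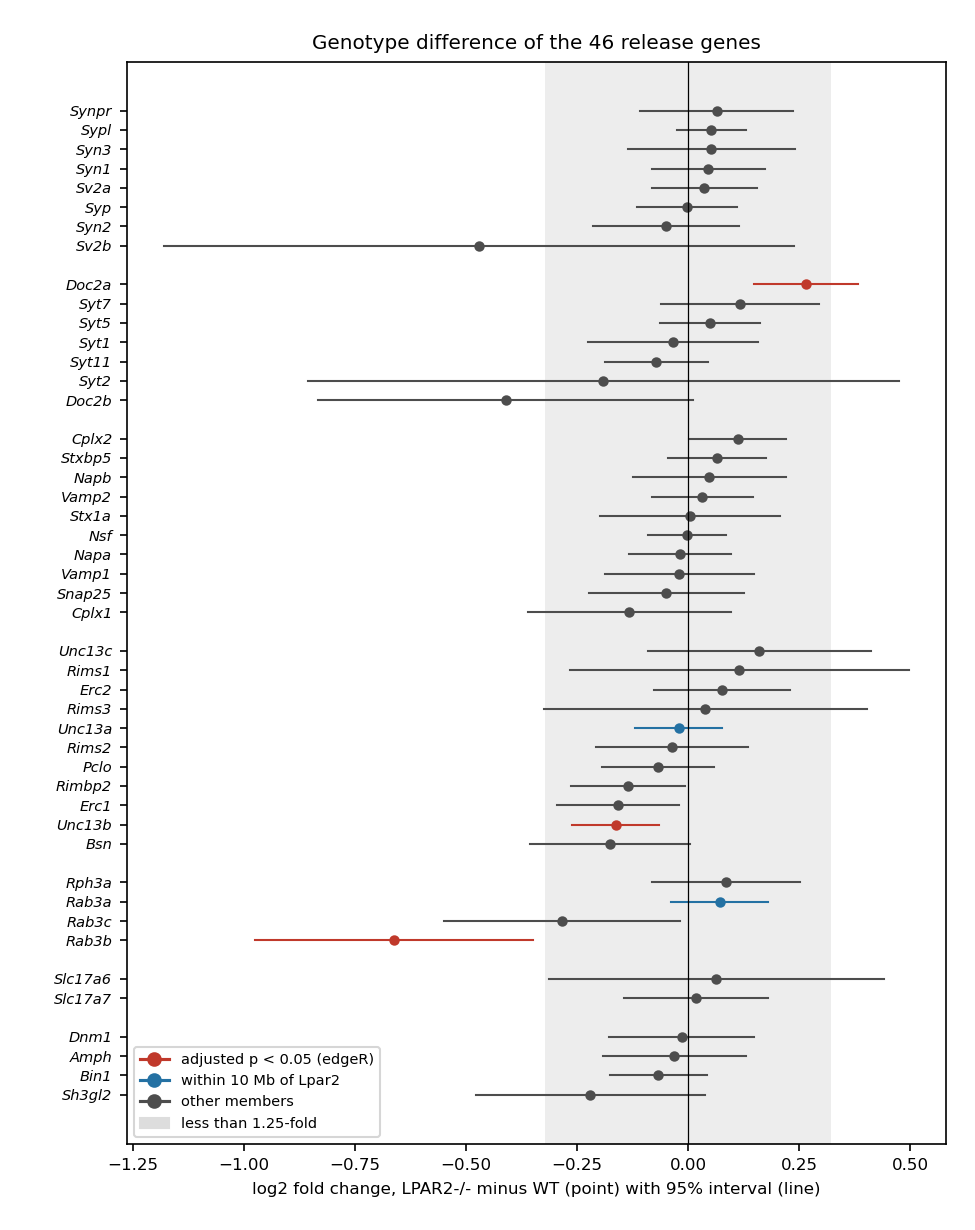
Log2 fold change (mice labelled LPAR2-/- minus WT, x axis) of each of the 46 release genes with its 95% interval (line), grouped by role, n = 7 mice per genotype, and the grey band marks less than 1.25-fold. Most points lie close to 0 with intervals inside the band, Rab3b, Unc13b and Doc2a (red) passed the threshold, and Sv2b, Syt2 and Doc2b have the widest intervals.

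Per length of transcript the release genes spanned more than 3 orders of magnitude. Levels between genes are compared as RPKM, the CPM per 1000 bases of the exons counted. Snap25, the SNARE protein of the presynaptic membrane, had the highest level with 1074 ± 115 RPKM in WT mice (SD, n = 7). It was followed by Cplx2 (583 ± 30.5), Syp (551 ± 45.9), Slc17a7 (506 ± 61.4), Nsf (491 ± 14.2) and Vamp2 (478 ± 40.6 RPKM). The mean ± SD of each of these 5 overlapped that of its neighbour in the order. At the other end were Slc17a6 (0.759 ± 0.158), Unc13c (0.896 ± 0.165) and Syt2 (0.906 ± 0.303 RPKM), whose spreads also overlapped. The active zone scaffolds lay between, with Erc2 at 46.9, Rimbp2 at 42.0, Bsn at 39.3 and Pclo at 10.4 RPKM on average in WT mice.

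**Figure D2:**
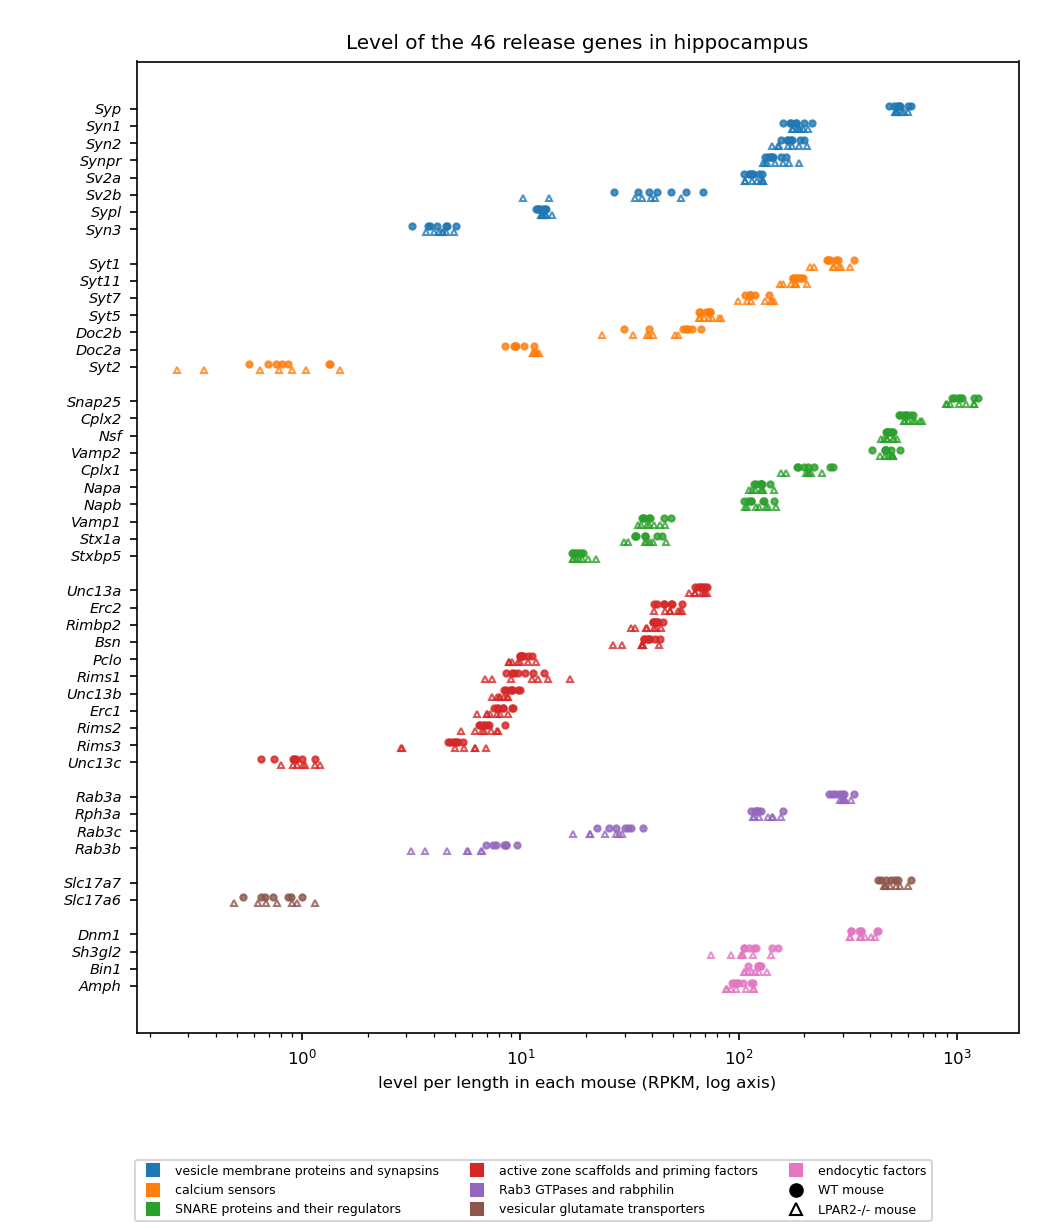
Level per length (RPKM, log axis) of each release gene in each mouse, grouped by role, with WT mice as filled circles and mice labelled LPAR2-/- as open triangles. The 2 genotypes lie over each other for most genes, from Snap25 near 1074 RPKM to Slc17a6 near 0.759 RPKM, whereas Rab3b lies lower in the mice labelled LPAR2-/-.

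Of the 8 vesicle membrane proteins and synapsins, 5 had a positive and 3 a negative difference and none passed the threshold. Syp encodes synaptophysin, the most abundant of the 8 by RPKM. Its lowest, median and highest values were 1214, 1345 and 1540.4 CPM in WT mice and 1299, 1329.5 and 1487.5 CPM in mice labelled LPAR2-/-. The ranges overlapped almost entirely, with a log2 fold change of −0.0017 (95% interval −0.11 to 0.11, adjusted p = 0.991). Synapsin I, encoded by Syn1, tethers vesicles to the reserve pool. Syn1 had 516, 587 and 698 CPM in WT mice (lowest, median and highest) and 568, 609 and 672 CPM in mice labelled LPAR2-/-. These ranges overlapped too, with a log2 fold change of 0.05 (95% interval −0.08 to 0.17, adjusted p = 0.704). Syn1 and Syn2 made up 50.5% and 48.3% of the RPKM of the 3 synapsins in WT mice, and 52.3% and 46.5% in mice labelled LPAR2-/-.

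Sv2b, a vesicle glycoprotein of the SV2 family, had the widest interval of the group, with a log2 fold change of −0.47 (95% interval −1.18 to 0.24, adjusted p = 0.431). It had 154, 240 and 394 CPM in WT mice and 58.4, 205 and 309 CPM in mice labelled LPAR2-/-. The lowest 2 values were those of LPAR2-/- mice 6 and 7, with 77.1 and 58.4 CPM. The 5 other mice labelled LPAR2-/- lay within the WT range. Without mice 6 and 7 the difference was −0.14 (adjusted p = 0.725). Sv2a, a related SV2 gene, had a difference of 0.04 with a 95% interval from −0.08 to 0.15. Sv2c, outside the 46 and at 0.490 RPKM in WT mice, had a difference of 0.43 with an interval from −0.37 to 1.24.

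Among the 7 calcium sensors, Doc2a was higher in the mice labelled LPAR2-/-, and the other 6 did not pass the threshold. Doc2a encodes a soluble protein with C2 domains that binds calcium with high affinity and has been linked to asynchronous and spontaneous release. It lies at chr7:126847553-126852705 of mm10 on the plus strand, and its reads numbered 369 to 619 in WT mice and 452 to 691 in mice labelled LPAR2-/-. The lowest, median and highest values were 21.5, 24.0 and 29.3 CPM in WT mice and 28.9, 29.8 and 30.8 CPM in mice labelled LPAR2-/-. Of the WT mice, 6 lay below every mouse labelled LPAR2-/-, and WT mouse 1 (29.3 CPM) lay among them. The mice labelled LPAR2-/- were close together, with a coefficient of variation of 2.36% against 9.99% in WT mice. The fold change was 1.20 (95% interval 1.11 to 1.30), or 0.27 on the log2 scale (SE 0.0558, adjusted p = 0.0109). Doc2a passed the threshold in all 24 alternative fits, with an adjusted p of at most 0.0288 when any 1 mouse was left out. Ino80e lies over Doc2a on the other strand, and counting was by strand.

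Doc2b, the related sensor, was the more abundant of the 2, with 83.6% of their summed RPKM in WT mice and 76.4% in mice labelled LPAR2-/-. Its values were 126, 244 and 286 CPM in WT mice and 101, 165 and 223 CPM in mice labelled LPAR2-/- (lowest, median and highest). The groups overlapped because WT mice 1 and 7 were low, with 126 and 164 CPM. The difference of −0.41 on the log2 scale did not pass the threshold (95% interval −0.83 to 0.01, adjusted p = 0.237). It was −0.60 without LPAR2-/- mice 6 and 7 (adjusted p = 0.107) and −0.29 without LPAR2-/- mice 2 and 3 (adjusted p = 0.410). It passed when the ratio of dentate to CA3 markers was added to the fit as a covariate, an alternative chosen after seeing the data (−0.52, adjusted p = 0.00119).

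Synaptotagmin 1, the sensor for fast synchronous release, was the most abundant synaptotagmin by RPKM, with 42.4% of the summed level of the 5 examined in WT mice and 41.5% in mice labelled LPAR2-/-. The Syt1 values were 1230.3, 1265 and 1637 CPM in WT mice and 1029, 1318 and 1568 CPM in mice labelled LPAR2-/-. The ranges overlapped, and the log2 fold change was −0.03 (95% interval −0.23 to 0.16, adjusted p = 0.867). Without LPAR2-/- mice 6 and 7 it turned to 0.08. Syt7, a sensor of high affinity linked to asynchronous release and facilitation, had a difference of 0.12 (95% interval −0.06 to 0.30, adjusted p = 0.441), which was 0.05 without mice 6 and 7 (adjusted p = 0.782). Syt5 and Syt11 had differences of 0.05 and −0.07, and both intervals lay within 1.25-fold. That of Syt11 was −0.0059 without LPAR2-/- mice 6 and 7 and −0.13 without mice 2 and 3. Syt2 is the fast sensor of mainly hindbrain synapses and was near the lower end of all genes tested, with 14 to 117 counts per mouse. Its interval was wide, from −0.86 to 0.47, and LPAR2-/- mice 6 and 7 were the 2 lowest of the 14 mice. Without them the standard error was 0.241, against 0.313 over all mice.

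None of the 10 SNARE proteins and regulators passed the threshold, 5 having positive and 5 negative differences, and the intervals of 9 lay within 1.25-fold. Snap25 had 2140.3, 2330.4 and 2818 CPM in WT mice and 2001, 2284 and 2695 CPM in mice labelled LPAR2-/-. Its groups overlapped over most of their range (log2 fold change −0.05, 95% interval −0.22 to 0.13, adjusted p = 0.777). Vamp2, synaptobrevin 2 of the vesicle membrane, had 889.9, 1027 and 1186 CPM in WT mice and 960.1, 1079 and 1109 CPM in mice labelled LPAR2-/-. Here the mice labelled LPAR2-/- lay wholly within the WT range (0.03, 95% interval −0.08 to 0.15, adjusted p = 0.778). Vamp2 made up 92.2% of the summed RPKM of Vamp1 and Vamp2 in WT mice and 92.5% in mice labelled LPAR2-/-. Stx1a encodes syntaxin 1A, the partner of SNAP-25 on the plasma membrane. It had 69.3, 76.8 and 92.5 CPM in WT mice and 61.7, 78.7 and 96.4 CPM in mice labelled LPAR2-/-. The WT range lay within that of the mice labelled LPAR2-/- (0.0039, 95% interval −0.20 to 0.21, adjusted p = 0.989).

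Complexins clamp and assist SNARE complexes. Cplx2 had 2693, 2877 and 3096 CPM in WT mice and 2834, 3115 and 3421 CPM in mice labelled LPAR2-/-. The median of the mice labelled LPAR2-/- lay above the highest WT mouse, but the adjusted p of 0.209 missed the threshold (log2 fold change 0.11, 95% interval 0.0032 to 0.22, unadjusted p = 0.0443). Cplx1 had 404, 457 and 595 CPM in WT mice and 344, 457 and 528 CPM in mice labelled LPAR2-/-. These medians were equal to 3 digits, and the interval from −0.36 to 0.10 reached beyond 1.25-fold downwards (−0.13, adjusted p = 0.503). The difference was −0.02 without LPAR2-/- mice 6 and 7 (adjusted p = 0.918), and without mice 2 and 3 it was −0.21 (adjusted p = 0.302). Nsf, the ATPase that takes SNARE complexes apart, and its adaptors Napa and Napb had differences of −0.0023, −0.02 and 0.05. The interval of Nsf, from −0.09 to 0.09, was the narrowest of these 3. Stxbp5 encodes tomosyn, an inhibitor of SNARE assembly, and had a difference of 0.06 (95% interval −0.05 to 0.17).

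Among the 11 active zone scaffolds and priming factors, 4 had positive and 7 negative differences, and Unc13b was called. Unc13b encodes Munc13-2, a priming factor used by a subset of hippocampal synapses, and lies at chr4:43058984-43264887 of mm10 on the plus strand. It had 53.5, 58.2 and 63.6 CPM in WT mice and 47.5, 51.6 and 55.9 CPM in mice labelled LPAR2-/-. The groups overlapped between 53.5 and 55.9 CPM. The fold change was 0.893 (95% interval 0.834 to 0.956), or −0.16 on the log2 scale (SE 0.0466, adjusted p = 0.0453). This call was at the edge of the threshold: it held in 9 of 24 alternative fits, and in 3 of the 14 that left out 1 mouse (those without LPAR2-/- mouse 2, LPAR2-/- mouse 3 or WT mouse 1), where the adjusted p ranged from 0.021 to 0.102. Without LPAR2-/- mice 6 and 7 the difference was −0.13 (adjusted p = 0.124). Unc13b was 11.8% of the summed RPKM of Unc13a, Unc13b and Unc13c in WT mice and 10.8% in mice labelled LPAR2-/-. Unc13c, the least abundant of these 3, had a difference of 0.16 with a 95% interval from −0.09 to 0.41. Unc13d, outside the 46 and left out of these shares, had 0.782 RPKM in WT mice, against 0.896 for Unc13c, and a difference of −0.09.

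Bassoon, encoded by Bsn, and piccolo, encoded by Pclo, are the giant scaffolds of the active zone. Bsn had 588, 614 and 698 CPM in WT mice and 423, 574 and 692 CPM in mice labelled LPAR2-/-. Of the mice labelled LPAR2-/-, 6 lay below every WT mouse and LPAR2-/- mouse 3 (692 CPM) lay near the top of the WT range. The log2 fold change was −0.18 (95% interval −0.36 to 0.0049, adjusted p = 0.236), and without LPAR2-/- mice 6 and 7 it was −0.06 (adjusted p = 0.552). Without LPAR2-/- mouse 3 it was −0.24 (adjusted p = 0.0624), and without mice 2 and 3 it was −0.26 (adjusted p = 0.0634). With the dentate to CA3 marker ratio as a covariate it was −0.14 (adjusted p = 0.0347). Pclo had a difference of −0.07 with an interval within 1.25-fold, which was −0.0069 without mice 6 and 7 and −0.15 without mice 2 and 3 (adjusted p = 0.957 and 0.0556). Rimbp2 and Erc1, which link the scaffold to calcium channels and to RIM proteins, had differences of −0.13 and −0.16, with unadjusted p of 0.0415 and 0.0276 and adjusted p of 0.202 and 0.163. Without mice 6 and 7 these differences were −0.05 and −0.10 (adjusted p = 0.507 and 0.356). Erc2, the more abundant of the Erc genes with 84.8% of their summed RPKM in WT mice, had a difference of 0.08 (adjusted p = 0.572), which was 0.15 without mice 6 and 7 (adjusted p = 0.193) and 0.01 without mice 2 and 3 (adjusted p = 0.939).

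RIM proteins recruit calcium channels and bind Rab3 and Munc13. Rims1 had 34.9, 39.7 and 52.1 CPM in WT mice and 28.1, 45.8 and 68.8 CPM in mice labelled LPAR2-/-. The mice labelled LPAR2-/- were more spread out than the WT mice and exceeded them at both ends, with LPAR2-/- mice 6 and 7 lowest and LPAR2-/- mouse 3 highest. The difference was 0.12 (95% interval −0.27 to 0.50, adjusted p = 0.753), and it was 0.30 without mice 6 and 7 (adjusted p = 0.205) and 0.0080 without mice 2 and 3 (adjusted p = 0.984). In Rims3 the same mice 6 and 7 had 2.81 and 2.75 CPM, against 4.55 to 5.31 CPM in WT mice and 4.92 to 6.76 in the other 5 mice labelled LPAR2-/-. Its difference over all mice was 0.04 (adjusted p = 0.926) and without mice 6 and 7 it was 0.26 (adjusted p = 0.0995). Rims2 had a difference of −0.04 with an interval within 1.25-fold.

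Rab3b was the release gene with the largest difference and the only 1 of the 46 whose groups did not overlap, which held for 1.77% of all genes tested. It encodes a small GTPase of the Rab3 family, which attaches to vesicles and binds RIM proteins and rabphilin. It lies at chr4:108879070-108943324 of mm10 on the plus strand and was covered by 371 to 706 reads in WT mice and 164 to 507 in mice labelled LPAR2-/-. The lowest, median and highest values were 23.0, 27.9 and 32.1 CPM in WT mice and 10.5, 18.8 and 22.2 CPM in mice labelled LPAR2-/-. Every mouse labelled LPAR2-/- lay below every WT mouse, and mice 6 and 7 were the lowest with 12.1 and 10.5 CPM. The fold change was 0.632 (95% interval 0.508 to 0.785), or −0.66 on the log2 scale (SE 0.147, adjusted p = 0.0165). Rab3b passed the threshold in all 24 alternative fits. Markers of inhibitory interneurons (10 genes, none called) summed to 793 to 913 CPM in WT mice and 653 to 967 CPM in mice labelled LPAR2-/-. The ranges overlapped, but LPAR2-/- mice 6 and 7, the lowest for Rab3b, were also the 2 lowest here with 653 and 766 CPM. Markers of parvalbumin neurons (4 genes, of which 3 were tested and none was called) summed to 256 to 274 CPM in WT mice and 209 to 271 CPM in mice labelled LPAR2-/-. Of the mice labelled LPAR2-/-, 5 lay below every WT mouse, and mice 6 and 7 were again the lowest with 219 and 209 CPM. The part of these markers in the Rab3b result was not tested, other than by leaving out both mice. Without LPAR2-/- mice 6 and 7 the difference was −0.48 (adjusted p = 0.0113), and with the dentate to CA3 marker ratio as a covariate −0.64 (adjusted p = 0.0115).

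Of the summed RPKM of Rab3a, Rab3b and Rab3c, Rab3b held 2.50% in WT mice and 1.53% in mice labelled LPAR2-/-. Rab3a held 88.6% and 91.3%. Rab3d, a further Rab3 gene outside the 46, had 7.61 RPKM in WT mice, against 8.19 for Rab3b, and a difference of 0.03 (95% interval −0.08 to 0.15). Rab3c had a difference of −0.28 (95% interval −0.55 to −0.02, unadjusted p = 0.0382, adjusted p = 0.193), and without LPAR2-/- mice 6 and 7 it was −0.17 (adjusted p = 0.395). Rph3a, which encodes the Rab3 effector rabphilin, had a difference of 0.09 (95% interval −0.08 to 0.25). Its WT mouse 6 stood apart with 730 CPM, against 521 to 579 CPM in the other WT mice.

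**Figure D3:**
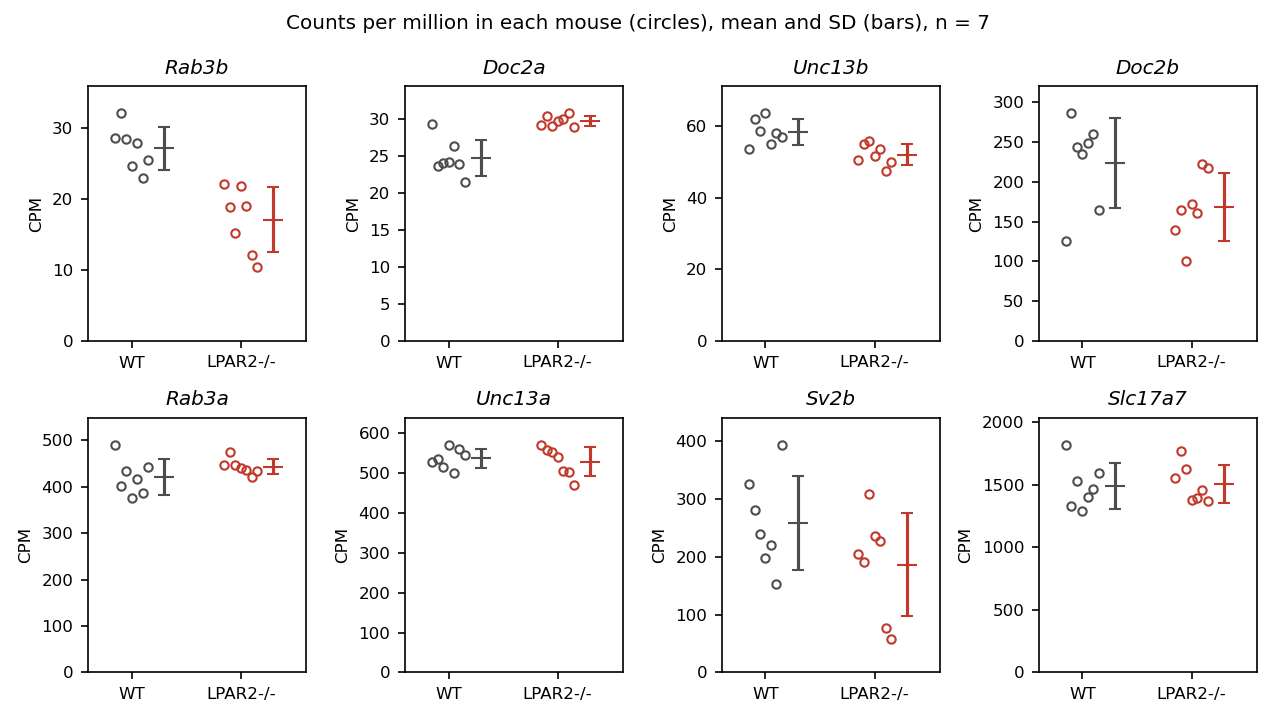
Level (CPM, y axis from 0) of 8 release genes in each WT mouse (grey circles) and each mouse labelled LPAR2-/- (red circles), with the mean and SD of each genotype as bars, n = 7. The groups are apart for Rab3b (10.5 to 22.2 against 23.0 to 32.1 CPM), nearly apart for Doc2a, and overlap for the others, and in Sv2b 2 mice labelled LPAR2-/- lie far below the rest.

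Neither Slc17a7 nor Slc17a6, the vesicular glutamate transporters among the 46, passed the threshold. Slc17a7 encodes VGLUT1, the transporter of most cortical and hippocampal glutamate neurons, and held 99.8% of the summed RPKM of these 2 in both genotypes. It had 1286, 1467 and 1818 CPM in WT mice and 1367, 1458 and 1769 CPM in mice labelled LPAR2-/-. The mice labelled LPAR2-/- lay within the WT range, with a log2 fold change of 0.02 (95% interval −0.14 to 0.18, adjusted p = 0.923). Slc17a6, VGLUT2, is typical of thalamic and other subcortical neurons and had 41 to 94 counts per mouse. Its values were 2.32, 3.15 and 4.28 CPM in WT mice and 2.10, 3.32 and 4.95 CPM in mice labelled LPAR2-/-. The ranges overlapped widely, and the interval of the difference, from −0.31 to 0.44, was wide (0.06, adjusted p = 0.877). The difference was 0.13 without LPAR2-/- mice 2 and 3 (adjusted p = 0.704). Slc17a8, VGLUT3, is outside the 46 and had 0.680 RPKM in WT mice, near the 0.759 RPKM of Slc17a6, with a difference of −0.14 (95% interval −0.80 to 0.52).

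All 4 endocytic factors had negative differences and none passed the threshold. Dnm1 encodes dynamin 1, the GTPase that pinches off endocytic vesicles, and had 1352, 1506 and 1803 CPM in WT mice and 1341.5, 1504 and 1754 CPM in mice labelled LPAR2-/-. The ranges were nearly the same, with a log2 fold change of −0.01 (95% interval −0.18 to 0.15, adjusted p = 0.941). Amph and Bin1, the amphiphysins, had differences of −0.03 and −0.07 with intervals within 1.25-fold. The difference of Bin1 was −0.02 without LPAR2-/- mice 6 and 7 and −0.13 without mice 2 and 3 (adjusted p = 0.868 and 0.0769). Sh3gl2, endophilin A1, had a difference of −0.22 (95% interval −0.48 to 0.04, adjusted p = 0.303), −0.10 without LPAR2-/- mice 6 and 7 (adjusted p = 0.597) and −0.36 without LPAR2-/- mice 2 and 3 (adjusted p = 0.0669).

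LPAR2-/- mice 6 and 7 stood apart in many of the release genes. They were the 2 lowest of the 14 mice in 23 of the 46 genes, among them Syt1, Snap25, Cplx1, Stx1a, Bsn, Dnm1, Rims1, Rims2, Rims3, Sv2b and Rab3b. In Synpr, Syt5 and Stxbp5 they were the 2 highest. Their median log2 ratio to the WT mean over the 46 genes was −0.19 in both mice, and between −0.05 and 0.12 in the other 5 mice labelled LPAR2-/-. In both, 13 of the 46 genes were more than 1.25-fold from the WT mean, against 1 to 6 genes in each of the other 12 mice. The same 2 libraries had the highest summed dentate granule cell markers in CPM (above) and the lowest summed markers of neurons in general, 3858 and 3692 CPM against 3884 to 5237 in the other 12. Their CA3 marker sums were 263 and 245 CPM against 255 to 381 CPM. They were also shallow, with 16663752 and 15434620 counted reads. WT mice 6 and 7 were similar in depth with 16373410 and 17412871, and every other library held at least 18637753. The part of depth in these values was not tested. Without LPAR2-/- mice 6 and 7, 2 of the 44 release genes away from Lpar2 were called, Rab3b and Doc2a (4.55%, against 6.45% of all genes in that fit), and 29 of the 46 were higher and 17 lower. Without LPAR2-/- mice 2 and 3, the libraries with the highest summed choroid plexus and oligodendrocyte markers in CPM, the 3 calls held. With the dentate to CA3 marker ratio as a covariate, 5 of 44 were called (Rab3b, Doc2a, Unc13b, Doc2b and Bsn), 11.4%, and 11.8% of all genes tested.

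**Figure D4:**
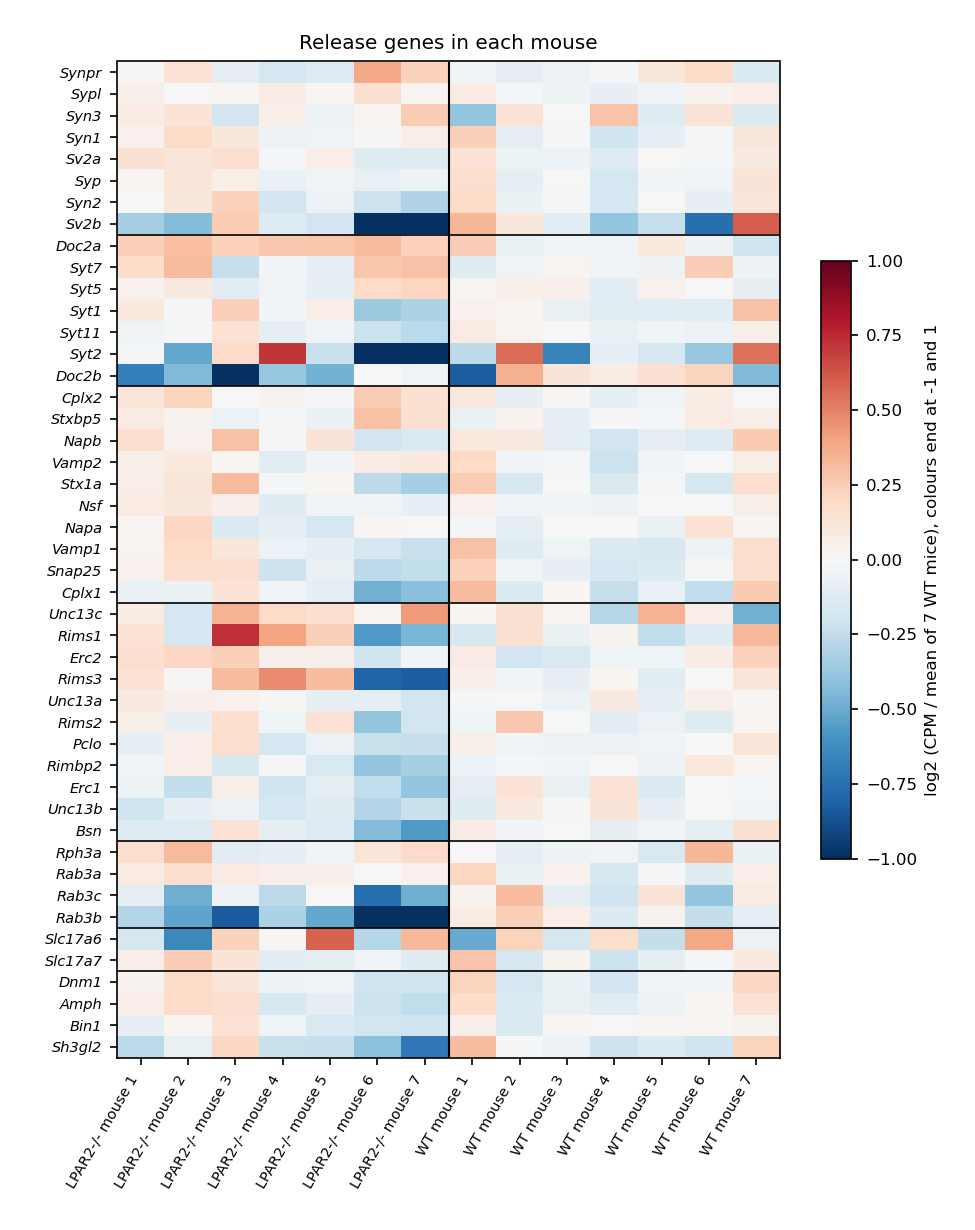
Log2 ratio of the CPM of each release gene (rows, grouped by role) to the mean of the 7 WT mice, for each mouse (columns), with red above and blue below that mean and colours ending at −1 and 1. LPAR2-/- mice 6 and 7 are blue in most rows, whereas Rab3b is blue in all 7 mice labelled LPAR2-/- and Doc2a red in all 7.

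Rab3a and Unc13a were considered against their neighbourhood. The midpoint of Rab3a (chr8:70754679-70758686 of mm10, plus strand) lies 0.930 Mb and that of Unc13a (chr8:71626712-71671757, minus strand) 1.82 Mb from that of Lpar2. Within 10 Mb of Lpar2, 41 of 155 genes tested were called, or 26.5%, against 6.57% of the 14742 genes elsewhere. Within 1 Mb of Rab3a 25 of 77 genes were called, 14 higher and 11 lower, and within 1 Mb of Unc13a 20 of 58, 10 in each direction. Lpar2 itself, called higher, is counted within 10 Mb and within 1 Mb of Rab3a. Rab3a and Unc13a were not among the called genes. Rab3a, the main Rab3 GTPase of forebrain vesicles, had 377, 417 and 491 CPM in WT mice and 422, 439.7 and 475 CPM in mice labelled LPAR2-/-. The latter lay within the WT range, with a log2 fold change of 0.07 (95% interval −0.04 to 0.18, adjusted p = 0.446). Unc13a encodes Munc13-1, the priming factor of most hippocampal synapses, and made up 87.1% of the summed RPKM of Unc13a, Unc13b and Unc13c in WT mice and 87.9% in mice labelled LPAR2-/-. It had 501, 535 and 569.96 CPM in WT mice and 471, 541 and 571 CPM in mice labelled LPAR2-/-. These ranges overlapped almost entirely (−0.02, 95% interval −0.12 to 0.08, adjusted p = 0.830). For both genes, differences beyond 1.25-fold lay outside the interval.

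**Figure D5:**
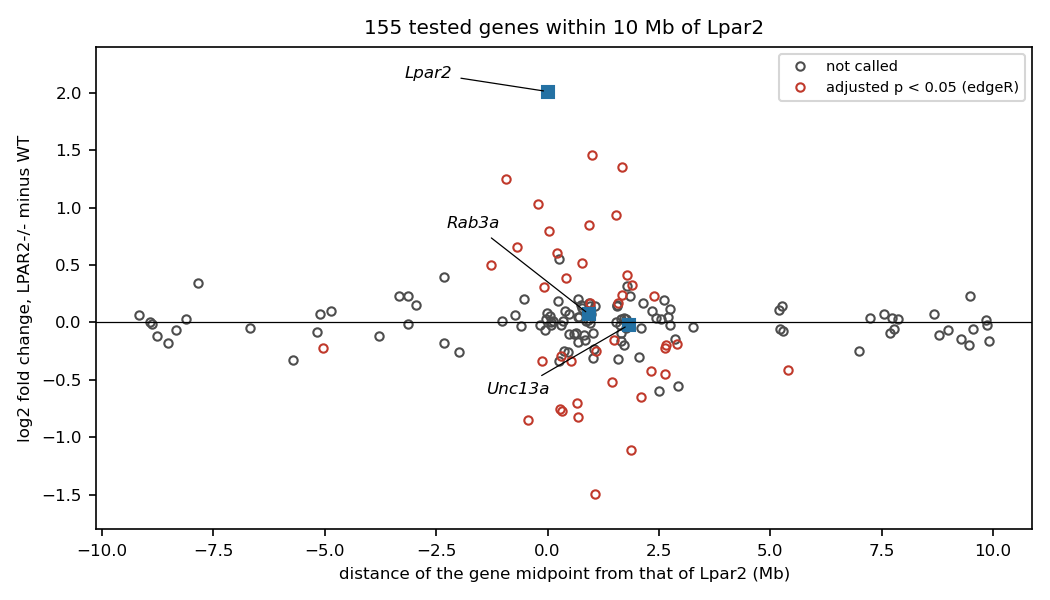
Log2 fold change (mice labelled LPAR2-/- minus WT, y axis) of the 155 tested genes within 10 Mb of Lpar2 against the distance of their midpoint from that of Lpar2 (Mb, x axis), with called genes in red and Lpar2, Rab3a and Unc13a as blue squares. Called genes, higher and lower, lie mostly in the middle of the window, where Rab3a (0.07) and Unc13a (−0.02) lie close to 0.

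A list of 98 further genes of the vesicle cycle was read beside the release genes, and 95 of them were tested. Of these 3 were called (3.16%, against 6.77% of all genes tested), Dnm3 higher and Itsn1 and Snph lower. An unadjusted p under 0.05 was found for 21 of the 95, against 22.4% of all genes. Dnm3 encodes dynamin 3, a relative of Dnm1. It had 88.4, 91.9 and 103 CPM in WT mice and 107, 122 and 129 CPM in mice labelled LPAR2-/-. Its groups did not overlap (log2 fold change 0.36, SE 0.0470, adjusted p = 0.000342), and it was called in all 24 alternative fits. Intersectin 1, encoded by Itsn1, is a scaffold of endocytosis and had 220.4, 272 and 286 CPM in WT mice and 200.3, 222 and 242 CPM in mice labelled LPAR2-/-. The groups overlapped between 220.4 and 242 CPM (−0.23, SE 0.0570, adjusted p = 0.0231), and the call was lost in 6 of 24 alternative fits. Snph encodes syntaphilin, which binds syntaxin and anchors axonal mitochondria. It had 466, 486 and 509.6 CPM in WT mice and 396, 428 and 475 CPM in mice labelled LPAR2-/-. The groups overlapped between 466 and 475 CPM (−0.15, SE 0.0416, adjusted p = 0.0374), and the call was lost in 14 of 24 alternative fits. By role, calls fell on 2 of 23 endocytic factors, 1 of 18 SNARE proteins and regulators, and on 0 of 14 vesicle proteins, 12 synaptotagmins, 18 active zone proteins and 10 Rab GTPases and regulators. Of these last 4 groups 2, 3, 6 and 4 genes had an unadjusted p under 0.05 by edgeR. With 6.77% of all genes called and 22.4% at an unadjusted p under 0.05, such small counts say nothing particular of a role.

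The promoters of the release genes were compared with those of other genes of this tissue. Sequences of the 250 bases before the start of transcription were taken from RefSeq (GRCm38.p6) for the 37 genes with an entry. Their median GC content was 61.2%, against 60% for the 11244 genes tested here that have an entry and 52.0% for all 27025 genes of the RefSeq table. The GC box GGGCGG, the core of Sp1 sites, was found on either strand in 27 of 37 (73.0%), against 62.2% of the genes tested and 35.4% of the whole table. The TATA box TATAAA occurred in 2 of 37 (5.41%), against 8.02% and 14.3%. The cAMP response element TGACGTCA occurred in 2 (5.41%, Syn1 and Sh3gl2) against 2.93% and 1.77%, and TTCAGCACC, the left part of the RE1 element bound by the repressor REST, in 1 (2.70%, Syn1) against 0.436% and 0.348%. The release genes thus lay closer to the genes tested than to the whole table in GC content, GC box and TATA box, and the other 2 motifs rest on 1 or 2 genes. These are matches of letters and no measurements of binding. The promoters of the genes called lower, Rab3b and Unc13b, are shown beside those of Unc13a, the abundant relative of Unc13b that was not called, and of Syn1, which holds matches to the RE1 part and the cAMP element. They run 5′ to 3′ on the strand of the gene and end at the base before the RefSeq start, which for Unc13b lies upstream of the start in the count table and for the other 3 is the same, and capitals mark matches of these 4 motifs on either strand.
Rab3b, chr4:108878820-108879069, plus strand: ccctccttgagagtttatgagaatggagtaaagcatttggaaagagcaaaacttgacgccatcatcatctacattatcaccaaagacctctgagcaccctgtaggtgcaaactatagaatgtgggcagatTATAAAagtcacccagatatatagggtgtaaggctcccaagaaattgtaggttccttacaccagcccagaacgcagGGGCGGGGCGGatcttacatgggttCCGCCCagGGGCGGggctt
Unc13b, chr4:43058703-43058952, plus strand: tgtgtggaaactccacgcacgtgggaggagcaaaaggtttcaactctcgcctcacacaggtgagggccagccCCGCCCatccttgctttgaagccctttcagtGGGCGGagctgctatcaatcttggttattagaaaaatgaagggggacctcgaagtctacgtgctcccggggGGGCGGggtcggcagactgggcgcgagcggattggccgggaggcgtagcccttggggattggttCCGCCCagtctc
Unc13a, chr8:71671758-71672007, minus strand: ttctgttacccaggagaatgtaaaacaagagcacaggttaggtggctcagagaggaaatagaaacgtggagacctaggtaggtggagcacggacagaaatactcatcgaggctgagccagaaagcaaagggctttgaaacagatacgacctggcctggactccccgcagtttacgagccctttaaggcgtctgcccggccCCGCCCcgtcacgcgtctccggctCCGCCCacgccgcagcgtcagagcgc
Syn1, chrX:20920919-20921168, minus strand: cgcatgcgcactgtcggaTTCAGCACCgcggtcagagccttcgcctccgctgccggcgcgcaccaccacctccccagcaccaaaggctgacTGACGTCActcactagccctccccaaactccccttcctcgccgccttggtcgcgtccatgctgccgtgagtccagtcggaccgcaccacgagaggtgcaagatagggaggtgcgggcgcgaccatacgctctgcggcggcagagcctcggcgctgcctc
The Rab3b window held a TATA box 120 bases before the start, and 4 GC boxes, on the strand of the gene at 44, 39 and 11 bases and on the other strand at 19 bases before the start, of which the first pair share a base. In Syn1 the RE1 part lay 232 and the cAMP element 159 bases before the start.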

How the data were processed

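The authors extracted RNA from frozen hippocampi with Trizol, removed ribosomal RNA and sequenced the libraries on an Illumina system. Per the labels and the methods of the study, adapters were removed with cutadapt 1.18, STAR placed the reads on mm10 and featureCounts 1.6.3 counted them by gene over exons and by strand. The deposited counts, which carry no normalisation, were the main data. A second deposited table of normalised values was not used here, because its decimal points are lost. Genes passing filterByExpr were normalised by TMM and tested with edgeR 4.0.16 (R 4.3.3), robust quasi-likelihood F test, 7 against 7 mice without covariates, Benjamini-Hochberg adjusted p under 0.05. CPM and RPKM use the TMM library size, and RPKM the exon length in the table. Mice are the replicates.

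The release genes, the lists and the genes to be named were chosen with earlier results of these data known. Named with all values were Rab3a, Unc13a, called genes and 13 genes taken whatever their values (Syn1, Syp, Syt1, Vamp2, Snap25, Stx1a, Cplx1, Cplx2, Rims1, Bsn, Slc17a6, Slc17a7, Dnm1). Alternatives were DESeq2 1.42.0, limma-voom (limma 3.58.1), other size factors and filters, the mouse number as a block, each mouse left out, and, chosen after seeing the data, LPAR2-/- mice 6 and 7 or 2 and 3 left out and a marker ratio as covariate. Intervals hold counting error and the spread between mice together. Promoter sequences came from RefSeq (GRCm38.p6).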

Additional observations from a re-analysis of the deposited data

Results flagged for a closer look

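Within a genotype, 1 mouse lay far from the other 6 in 5 of 94 groups of values of the release genes and of Lpar2, as chance would give in about 1 of 20 groups. These were WT mouse 7 for Syt1 (1636.7 CPM, next 1372), WT mouse 6 for Syt7 (963.22 CPM, next 828) and for Rph3a (730.4 CPM, next 579), and WT mouse 2 for Rims2 (67.458 CPM, next 57.1) and for Bin1 (271.83 CPM, next 300). In sums of marker genes 4 of 36 groups did so. WT mouse 2 had 292.18 CPM of CA1 markers (next 122), LPAR2-/- mouse 3 had 4058.6 CPM of oligodendrocyte markers (next 2036), LPAR2-/- mouse 2 had 285.75 CPM of choroid plexus markers (next 50.7) and WT mouse 4 had 260.25 CPM of meningeal fibroblast markers (next 128). The part of these mice in the results was not tested beyond leaving them out.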

How the results depend on the processing

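Rab3b, Doc2a and Dnm3 kept their direction and their side of the threshold in all 24 alternative fits. Of the 44 release genes away from Lpar2, 2 to 5 were called in these fits, 5 with the marker ratio as covariate, while the share over all genes ranged from 3.79% to 11.8%. The count of lower calls, 2 in the edgeR fit, was 1 with upper quartile scaling, without the filter, with the replicate block and without LPAR2-/- mice 6 and 7, 4 with the covariate, and 1 to 2 with each mouse left out, as Unc13b was lost (adjusted p from 0.0209 to 0.124 over all alternatives, 0.0682 with the block). Calls among further vesicle genes numbered 6 with DESeq2, without LPAR2-/- mice 2 and 3 and with the covariate, 1 with the block, and 1 (without WT mouse 2 or 4) to 7 (without WT mouse 1) with each mouse left out. Over all genes, 586 were called with the block, 1760 with the covariate and 567 (without WT mouse 2) to 1385 (without WT mouse 1) with each mouse left out. Upper quartile scaling moved the share of higher among called genes from 49.0% to 62.0%. The cause was not tested.

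Correlations between the deviations of same-numbered mice ran from −0.33 to 0.31, with 3 of 7 above 0.1. The closest WT mouse had the same number for 3 of the 7 mice labelled LPAR2-/-. These values do not decide whether the numbers pair the mice, and the main fit left them unpaired. No 2 libraries of a genotype were copies (chi-square per degree of freedom at least 3.48 over 42 pairs).

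Small differences that were not called changed sign. Without LPAR2-/- mice 6 and 7 the log2 fold changes were Unc13a 0.02564, Syn2 0.02804, Syp 0.024, Synpr −0.04124, Syt1 0.07523, Syt2 0.1026, Syt5 −0.0162, Vamp1 0.04599, Snap25 0.02852, Stxbp5 −0.001889, Nsf 0.02201, Rims2 0.0531, Dnm1 0.05609 and Amph 0.04397. Without mice 2 and 3 they were Sv2a −0.006142, Stx1a −0.09399, Napb −0.004453, Rims3 −0.01969 and Slc17a7 −0.05741. With the covariate they were Syp 0.02041, Syt1 0.002802, Vamp1 0.01852, Nsf 0.009363, Dnm1 0.02598 and Amph 0.002355. Under limma-voom Syp was 0.0005784 and Rims3 −0.0005993. Under the replicate block Syp was 0.0009148, Stx1a −0.001055 and Rims3 −0.009493. With upper quartile scaling Syp was 0.01784, Nsf 0.0175, Napa 0.002086 and Dnm1 0.005255. With each mouse left out the ranges were Unc13a −0.04079 to 0.004347, Syn3 −0.004351 to 0.1055, Syp −0.02864 to 0.02894, Syt1 −0.08449 to 0.02144, Vamp1 −0.05984 to 0.03484, Vamp2 −0.001742 to 0.06706, Stx1a −0.05583 to 0.0515, Nsf −0.02256 to 0.01833, Napa −0.05794 to 0.01039, Rims1 −0.02065 to 0.2016, Rims2 −0.07312 to 0.01515, Rims3 −0.0501 to 0.1359, Slc17a6 −0.04549 to 0.1531, Slc17a7 −0.02486 to 0.0718, Dnm1 −0.05115 to 0.02686 and Amph −0.07143 to 0.001235. Syt2, Slc17a6, Unc13c and Rims3 had the fewest reads, and counting error was not parted from the spread between mice. Without LPAR2-/- mice 6 and 7 the standard error of Rims3 was 0.0923, against 0.172 over all mice.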
